A study of Drosophila melanogaster with 8 samples.

Results

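Chromosome 4, the small dot chromosome of Drosophila melanogaster, was examined along its length for trimethylation of lysine 9 on histone H3 (H3K9me3) in ovaries. Its members were all 1352 windows of 1 kb that genome build dm3 places on this chromosome, of 168744 windows listed in all, chosen by position and not by any measured value. Enrichment was log2((ChIP RPKM + 1)/(input RPKM + 1)), where RPKM is reads per kilobase of window scaled to the reads of the library, and a value of 1 means that ChIP exceeded input by a factor of about 2. It was read in windows whose mean input over 4 input libraries was at least 2 RPKM. A total of 1179 of the 1352 windows passed, against 117126 in the whole series, and only these are called tested windows. Each 50 kb bin below is named by its dm3 positions and given as the mean enrichment of its tested windows.

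H3K9me3 marks heterochromatin and is bound by heterochromatin protein 1 (HP1). In flies it is laid down by several methyltransferases, among them Eggless (the SETDB1 homologue), which is known for its role on chromosome 4. This chromosome is packed largely as heterochromatin, yet it carries genes that are expressed at levels like those of euchromatin, many of them bound by POF, a protein specific to this chromosome. The RefSeq table for genome Release 6 lists 114 genes on it, 80 of them protein-coding. That release is not dm3, so no gene was placed on the windows and no sequence was read. Sov (small ovary) is a zinc-finger protein known to associate with HP1.

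Adult ovaries came from flies with MTgal4, a Gal4 driver used for expression in the female germline, and the hairpin shSov, which is named for Sov, and from flies with the same driver and the hairpin shW, taken here as the control. Every fly used therefore carried MTgal4, and all were kept on yeast for 2 to 3 days before dissection. Each genotype had 2 ChIP libraries made with an antibody to H3K9me3 and 2 input libraries from lysate set aside before precipitation. Libraries titled as a repeat are called replicate 2. ChIP and input of the same genotype and number were treated as a pair, and nothing in the labels says whether replicates came from separate flies, so differences between them may be technical. Whole ovaries hold germ cells and somatic follicle cells, so that fewer marked cells and less mark per cell cannot be told apart.

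The ChIP libraries held 16514896 and 5847945 reads for shSov replicates 1 and 2, against 4208693 and 6383061 for shW. The inputs held 27962050 and 26348096 reads for shSov, against 13688640 and 9760028 for shW. The median tested window of chromosome 4 held 306 and 106 ChIP reads in shSov, against 174 and 167 in shW, and a 50 kb bin held between 2581 and 27416, so depth limits single windows far more than bins. No added reference chromatin is described in the labels, so values are shares of a library.

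Chromosome 4 took 2.65% (95% Wilson interval 2.65% to 2.66%) and 2.59% (2.57% to 2.60%) of the ChIP reads in shSov replicates 1 and 2. It took 6.11% (6.09% to 6.13%) and 3.77% (3.76% to 3.79%) in shW. These intervals cover counting error only, since amplified reads are not independent molecules. The gap between the shW replicates far exceeded counting error. In bins, shW replicate 1 was the highest of the 4 libraries in 25 of 25, and exceeded shW replicate 2 by 0.42 to 0.94 on the log2 scale with a mean of 0.74. Over the other 2487 bins of the genome the same difference averaged -0.10 ± 0.20 (SD over bins), and 36 of those exceeded the smallest value on chromosome 4. The shSov replicates differed by at most 0.13 in any bin of chromosome 4, with a median of 0.04. The genotype differences over the chromosome, its bins and its strongest blocks are therefore also given against shW replicate 2 alone.

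Reads covered most of the chromosome but not its ends. Of 173 untested windows, 102 lay at the ends, in positions 1 to 50000 and from 1300001 to the last base at 1351857. Of these 102, 84 held no read in any library, and the other 18 had a mean input of at most 1.28 RPKM. The other 71 untested windows were scattered inside, with runs of at least 5 at 53001 to 59000, 97001 to 102000, 341001 to 348000, 693001 to 700000 and 1286001 to 1299000. The tested span ran from 52001 to 1300000. It filled 25 of 28 bins of 50 kb with 32 to 50 tested windows each, and the remaining 3 bins had none.

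The mark covered much of the tested span in both genotypes, but unevenly. An enrichment of at least 1 was reached by 49.5% and 50.7% of tested windows in shSov replicates 1 and 2. In shW it was reached by 82.7% and 55.0%. Averaged over the 4 libraries, 733 windows (62.2%) had an enrichment of at least 1, against 7.25% of all tested windows of the genome and 1.97% of those on the autosomal arms away from the centromere. The share was 53.5% in the 1 Mb of the arms nearest the centromere and 93.2% on the scaffolds of assembled heterochromatin. At an enrichment of at least 2 chromosome 4 had 191 windows (16.2%), below the 28.9% of the pericentric 1 Mb and the 50% of the heterochromatin scaffolds. Windows with more input than ChIP, below 0, numbered 54 (4.58%), against 78.8% of all tested windows and 23.4% of those in the pericentric 1 Mb. The median window stood at 1.23, in a range from -0.50 to 3.05. By share of marked windows in this mean, chromosome 4 thus lay near the pericentric 1 Mb, with fewer very strong windows and fewer unmarked ones. The mean is lifted by shW replicate 1, which exceeded shW replicate 2 by 0.74 on chromosome 4 and 0.10 in the pericentric 1 Mb. By library, windows of chromosome 4 below 0 numbered 76 and 93 in shSov, against 6 and 145 in shW. Shares by library are not given for the other regions.

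The 50 kb profile had 9 bins with a mean of at least 1.5 over the 4 libraries, 13 between 0.5 and 1.5, and 3 below 0.5. The 3 weakest lay in the centromere-proximal part of the tested span and alternated with strong bins. The longest strong stretch lay in the other part, where every bin from 850001 to 1100000 had a mean between 1.49 and 1.76.

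**Figure D1:**
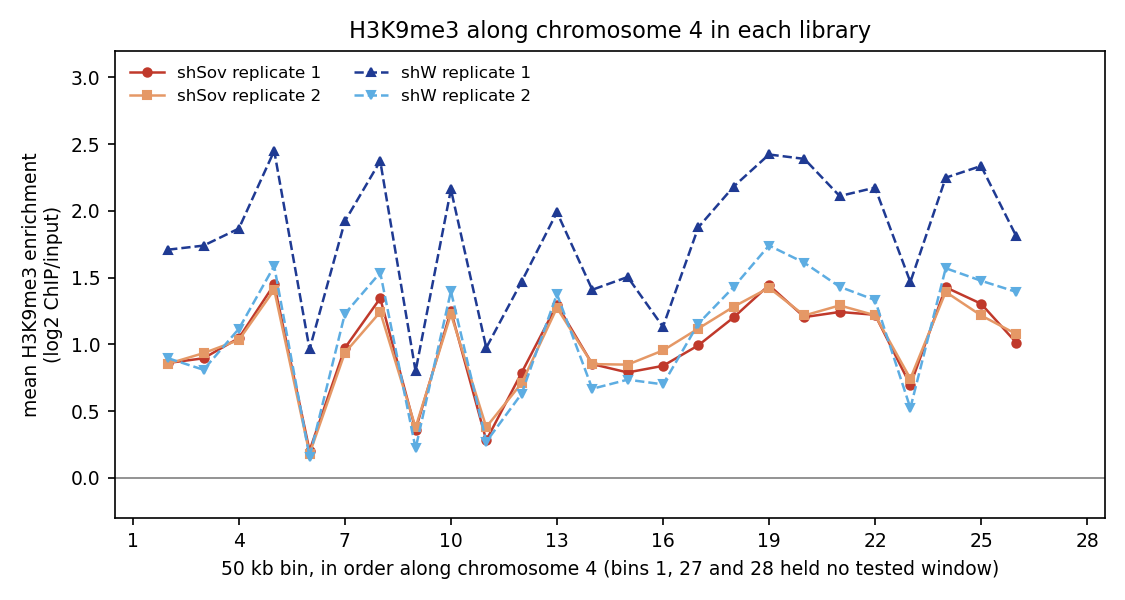
Mean H3K9me3 enrichment (log2 ChIP over input, y axis) of the tested windows in each 50 kb bin, in order along chromosome 4 from the centromere-proximal end (x axis), with a line for each of the 2 shSov and 2 shW libraries. The 4 lines have 18 of 24 steps in the same direction, and shW replicate 1 lies highest in all 25 bins.

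The bin from 900001 to 950000 was the strongest, with an enrichment of 1.44 and 1.42 in shSov replicates 1 and 2, against 2.42 and 1.74 in shW. Next came 200001 to 250000, with 1.45 and 1.41 in shSov, against 2.45 and 1.59 in shW. The bin from 1150001 to 1200000 followed, with 1.43 and 1.39 in shSov, against 2.25 and 1.57 in shW. In all 3 the shSov libraries lay close together and below both shW libraries, with no overlap. That order held in 16 of the 25 bins of chromosome 4 and in 12.4% of all bins. In RPKM, the ChIP of the bin from 200001 averaged 33.9 and 32.3 in shSov, against 89.2 and 51.0 in shW, and its input averaged 9.81 and 9.23 in shSov, against 13.2 and 13.6 in shW.

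The weakest bin was its neighbour from 250001 to 300000, with 0.20 and 0.18 in shSov, against 0.96 and 0.16 in shW. The bin from 400001 to 450000 had 0.36 and 0.38 in shSov, against 0.80 and 0.22 in shW. The bin from 500001 to 550000 had 0.28 and 0.38 in shSov, against 0.97 and 0.27 in shW. In these 3 troughs the groups overlapped, since both shSov libraries lay above shW replicate 2 and below shW replicate 1. Even here the ChIP of the weakest bin reached 9.69 and 9.01 RPKM in shSov, against 19.1 and 12.8 RPKM in shW, over inputs of 7.91 and 7.27 RPKM in shSov, against 9.093 and 10.98 RPKM in shW.

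Most steps between neighbouring bins had the same direction in both genotypes. The bins lie on a fixed grid, so the exact place and steepness of a border were not measured. Of 24 steps between neighbouring bins, 18 had the same sign in all 4 libraries. The steepest, from the bin at 200001 down to that at 250001, was -1.25 and -1.23 in shSov, against -1.49 and -1.43 in shW. Pearson's r over the 25 bins was 0.985 between the shSov replicates, 0.965 between the shW replicates, and 0.923 to 0.961 between a shSov and a shW library. These are descriptions across neighbouring stretches of 1 chromosome, which are not independent, and the libraries share its mappability and base composition. The order of strong and weak bins was thus nearly the same in both genotypes.

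At the finest scale, the highest window was 1218001 to 1219000, with an enrichment of 2.78 and 2.61 in shSov, against 3.98 and 2.82 in shW. Its ChIP stood at 63.5 and 54.0 RPKM in shSov, against 223 and 105 RPKM in shW. The 4 next highest windows began at 151001, 227001, 888001 and 221001. The window at 221001 had 2.59 and 2.78 in shSov, against 3.01 and 2.83 in shW, and so the smallest difference between genotypes among these 5, at -0.23. In each of these 5 windows both shSov libraries lay below both shW libraries. That order held in 46.7% of the tested windows of chromosome 4 and in 12.1% of all tested windows. The 5 were picked on the mean over the 4 libraries, which includes the values compared.

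The 5 lowest windows began at 579001, 90001, 92001, 91001 and 252001. The lowest of them, 579001 to 580000, had -0.68 and -0.66 in shSov, against 0.27 and -0.91 in shW. The window at 252001 had -0.64 and -0.83 in shSov, against 0.48 and -0.57 in shW. Of these 5 windows, only that at 252001 had both shSov libraries below both shW libraries, and the other 4 overlapped. These too were picked on the mean over the 4 libraries, and the shares for this order are those given above. The window at 252001 held as few as 16 ChIP reads, in shSov replicate 2.

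Strong enrichment came in long blocks. A block was a run of at least 10 tested windows with a mean over the 4 libraries of at least 1, joined across single windows below 1, with untested windows passed over. There were 22 blocks with 686 windows (58.2% of those tested) over 730 kb, from 10 to 185 kb long with a median of 23.5 kb. Of the 22, 11 span untested windows, 44 in all, and the last one, from 1272001 to 1300000, is 28 kb long with only 11 tested windows. The longest ran from 906001 to 1091000. It had an enrichment of 1.34 and 1.35 in shSov, against 2.34 and 1.61 in shW, and ChIP means of 28.03 and 27.7 RPKM in shSov, against 73.6 and 43.9 RPKM in shW. Its shSov values lay below both shW values.

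The strongest block by mean, 158001 to 171000, was 13 kb long. It had 1.84 and 1.87 in shSov, against 2.55 and 2.09 in shW. The block from 874001 to 900000 had 1.57 and 1.62 in shSov, against 2.69 and 1.97 in shW, and the largest difference of all 22 blocks, at -0.74. These 2 blocks differed in length and in the size of the difference, but in both the groups stood apart.

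Next by mean came 135001 to 153000, with 1.56 and 1.65 in shSov, against 2.47 and 1.82 in shW. The block from 681001 to 692000 had 1.54 and 1.58 in shSov, against 2.58 and 1.68 in shW. The fifth, 1161001 to 1219000, had 1.56 and 1.48 in shSov, against 2.44 and 1.74 in shW, and holds the highest window at its last kilobase. In each of the 5 strongest blocks both shSov values were under both shW values.

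Over the windows of the 5 strongest blocks together, enrichment was 1.58 ± 0.0043 in shSov and 2.17 ± 0.49 in shW (SD, n = 2 each). The difference was -0.59, with a two-sided exact permutation p of 0.333, the smallest that 2 libraries against 2 can give, and -0.25 against shW replicate 2 alone. Over all 22 blocks, shSov lay below both shW values in 20 and above both in 0, with differences from -0.74 to -0.02 and a median of -0.55. No share for blocks elsewhere in the genome is given, so these counts are not shown to be particular to chromosome 4.

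Unmarked gaps in the mean over the 4 libraries were few and short. A gap was a run of at least 3 tested windows with a mean over the 4 libraries below 0. There were 5, with 16 windows over 16 kb, and none was longer than 4 kb. Without shW replicate 1, which lifts this mean, there were 12 gaps over 45 kb. The gap from 90001 to 93000 had -0.20 and -0.50 in shSov, against -0.29 and -0.78 in shW. The gap from 251001 to 254000 had -0.40 and -0.39 in shSov, against 0.42 and -0.31 in shW. That gap was the only 1 of the 5 with both shSov values below both shW values.

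The remaining gaps lay further along. The gap from 510001 to 514000 had -0.17 and -0.10 in shSov, against 0.25 and -0.47 in shW. The gap from 559001 to 562000 had -0.23 and -0.25 in shSov, against 0.35 and -0.82 in shW. The gap from 657001 to 660000 had -0.04 and -0.10 in shSov, against 0.10 and -0.69 in shW. In these 3 the shSov values fell between the shW replicates, and in 4 of all 5 gaps both shSov values lay above shW replicate 2.

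**Figure D2:**
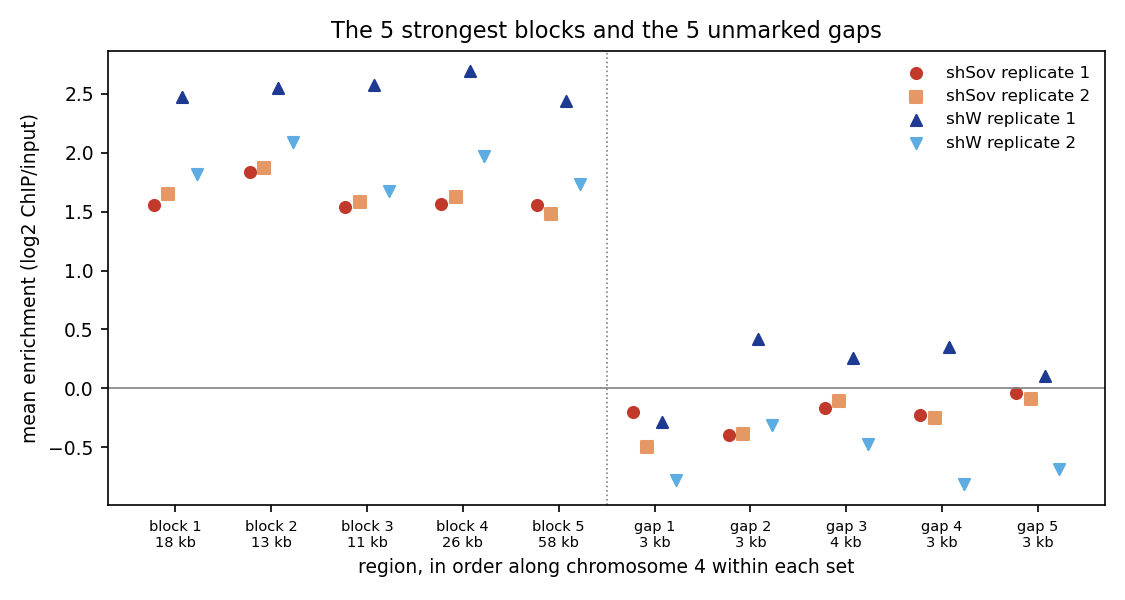
Mean enrichment (log2 ChIP over input, y axis) of the 5 strongest blocks and the 5 unmarked gaps (x axis, each set in order along the chromosome), with a point per library and no error bars. In the blocks both shSov points lie below both shW points, while in 4 of the 5 gaps they lie above the lower shW point.

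Over the 16 gap windows, enrichment was -0.21 and -0.26 in shSov, against 0.17 and -0.60 in shW, a difference of -0.02 (two-sided exact permutation p of 1). ChIP averaged 7.33 and 6.53 RPKM in shSov, against 12.9 and 8.29 RPKM in shW, and input 8.60 and 7.86 RPKM in shSov, against 11.4 and 12.9 RPKM in shW. So ChIP and input were both lower in shSov here, and their ratio overlapped. A looser limit of 0.5 gave 23 weak stretches with 168 windows over 174 kb, the longest being 18 kb from 648001 to 666000. These had 0.09 and 0.06 in shSov, against 0.61 and -0.19 in shW. Both shSov replicates were lower than both shW replicates in 1 of the 23, above both in 1, and above shW replicate 2 in 20. For gaps and weak stretches too, no share from elsewhere in the genome is given.

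The first question on genotype was whether the chromosome as a whole differed. Its mean enrichment over tested windows was 1.00 and 1.01 in shSov replicates 1 and 2, against 1.82 and 1.07 in shW. All 4 values are thus ordered with both shSov libraries lowest, but shW replicate 2 lay closer to shSov than to its own replicate. The means were 1.00 ± 0.0059 in shSov and 1.45 ± 0.53 in shW (SD, n = 2 each). The difference was -0.44, with an exact two-sided permutation p of 0.333, and it shrank to -0.07 without shW replicate 1 and grew to -0.81 without shW replicate 2.

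Set beside the rest of the genome, the mean on the autosomal arms away from the centromere was higher in shSov by 0.18, and on the heterochromatin scaffolds it was lower by 0.24. On those scaffolds shW replicate 1 minus shW replicate 2 was -0.0012, and in the 1 Mb of the arms nearest the centromere it was 0.10, against 0.74 on chromosome 4. The cause of that distance was not tested.

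By bin, both shSov values were under both shW values in 16 of 25, against 12.4% of all 2512 bins of the genome. They lay above both in 0 of 25, against 64.6% of all bins, and overlapped in 9. The differences ran from -0.79 to -0.02 with a median of -0.46. The largest was in the bin from 950001 to 1000000, with 1.204 and 1.216 in shSov, against 2.39 and 1.61 in shW. The smallest was in the bin from 750001 to 800000, with 0.84 and 0.95 in shSov, against 1.13 and 0.70 in shW.

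Against shW replicate 2 alone, both shSov values were below in 16 bins, against 17.2% of all bins, and above in 9, against 72.7% of all bins. As shW replicate 1 was the highest library in all 25 bins, these 16 are the same bins as those below both shW values. This count is therefore not a separate result. All 15 bins that were stronger than the mean of the 25 bins (1.23) lay below shW replicate 2, and 9 of the 10 weaker bins lay above it. The mean that sorts the bins includes the libraries compared, so the sorting and the difference are not independent. The split also goes with the smaller spread over bins in shSov described below, and is not a separate result. These differences ran from -0.40 to 0.20 with a median of -0.10. Where each library was centred on its mean over the autosomal arms away from the centromere, 17 bins lay below shW replicate 2, 4 above and 4 between. The 0 point of this comparison therefore depends on the centring. Centring subtracts a constant from each library, so it could not change the order of bins by difference.

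**Figure D3:**
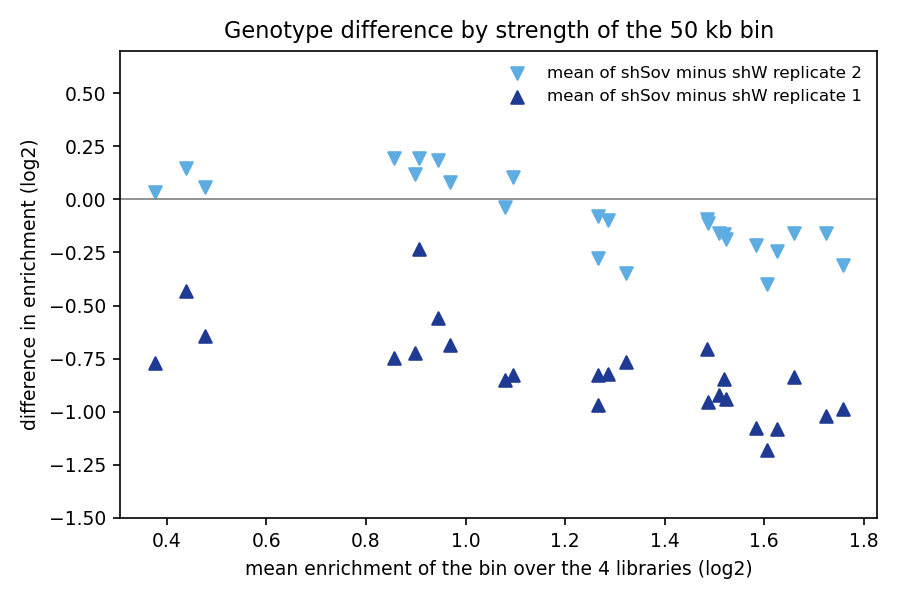
Difference in enrichment of each 50 kb bin (log2, y axis), as the mean of both shSov libraries minus shW replicate 1 or minus shW replicate 2, against the mean enrichment of the bin over the 4 libraries (x axis). Differences from shW replicate 2 run from -0.40 to 0.20 and lie below 0 in all 15 stronger bins, and those from shW replicate 1 lie lower in every bin. Both axes use the same libraries and so are not independent.

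In windows, an enrichment of at least 1 in both replicates was reached by 519 (44.0%) in shSov, where the share over the genome was 5.8%, and by 646 (54.8%) in shW, where it was 7.23%. A total of 503 windows were shared, which is 96.9% of the shSov windows and 77.9% of the shW windows. There were 16 windows in shSov and not in shW, and 143 in shW and not in shSov. The set in shSov was thus almost wholly contained in that of shW. No such overlap is given for the rest of the genome, so this containment is not shown to be particular to chromosome 4. Both shSov replicates were lower than both shW replicates in 551 windows (46.7%), against 12.1% of all tested windows, and above both in 20 (1.70%), against 34.6%.

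The test across all windows used edgeR's quasi-likelihood model of read counts, with the interaction of genotype and antibody and Benjamini-Hochberg adjustment over the 117126 tested windows. At an adjusted p below 0.05, shSov was lower in 5 of 1179 windows on chromosome 4 (0.424%), against 0.595% of all tested windows, and higher in 0, against 0.264%. That share is close to the background. At an unadjusted p below 0.05 there were 311 lower (26.4%) on chromosome 4, against 4.45% of all tested windows, and 1 higher, against 9.3%. The median log2 change was -0.47 on chromosome 4, against 0.19 over all tested windows, and 1048 of the 1179 windows (88.9%) were below 0, against 31.2% of all. The same model over 2512 bins called 0 of 25 bins on chromosome 4, against 0.717% lower and 0.159% higher among all bins. At an unadjusted p below 0.05 edgeR gave 5 bins lower (20%), against 5.73% of all bins, and 0 higher, against 20.9%. The edgeR log2 change was below 0 in 24 of 25 bins, against 28.6% of all bins. At an adjusted p below 0.05, limma called 0 of 25 bins lower, against 0.0398% of all bins, and DESeq2 called 3 (12%), against 11.3%.

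The smallest adjusted p among bins was 0.068, for the last one from 1250001 to 1300000, with an edgeR log2 change of -0.54. Its enrichment was 1.01 and 1.08 in shSov, against 1.81 and 1.39 in shW. Without shW replicate 1 the edgeR model called 2 of 25 bins lower (8%), against 5.53% of all bins, a share near the background. They were this bin (log2 change -0.35, adjusted p of 0.027) and the bin from 950001 (log2 change -0.36, adjusted p of 0.033). Over the 4 edgeR fits that left out a replicate, the adjusted p of both bins ranged from 0.00084 to 0.828. In each such fit the lone pair of a genotype is taken to vary like the other groups. Without shW replicate 2, 24 bins were called lower, against 15.9% of all bins, and 714 windows (60.6%), against 5.05% of all windows, so the number of calls rests on which shW replicate is kept.

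The 5 windows called lower lay in or beside blocks, which held 58.2% of the tested windows of chromosome 4. So few windows cannot show a preference for blocks. The first, 989001 to 990000, had ChIP values of 8.84 and 8.89 RPKM in shSov, against 29.7 and 20.4 RPKM in shW (edgeR log2 change -1.26, adjusted p of 0.0097). Close by, 991001 to 992000 had 9.08 and 7.01 RPKM in shSov, against 30.4 and 21.5 RPKM in shW (edgeR log2 change -1.15, adjusted p of 0.034). The window from 1041001 to 1042000 had 7.39 and 6.84 RPKM in shSov, against 29.9 and 16.9 RPKM in shW (edgeR log2 change -1.37, adjusted p of 0.018). All 3 lie inside the longest block. They were picked for being called lower in shSov, so the order of the groups in them is not a separate result.

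The window from 328001 to 329000 had 13.4 and 13.5 RPKM in shSov, against 83.2 and 30.7 RPKM in shW (edgeR log2 change -1.68, adjusted p of 0.032). The last, 1219001 to 1220000, adjoins the highest window of the chromosome and had 9.69 and 9.23 RPKM in shSov, against 71.3 and 21.5 RPKM in shW (edgeR log2 change -1.68, adjusted p of 0.047). In both, shW replicate 1 was more than 2 times shW replicate 2. At 1219001 enrichment was -0.03 and 0.05 in shSov, against 2.31 and 0.53 in shW, so this window passed 1 in shW replicate 1 alone. Where the block ended in each library was not measured. Over 14 alternatives the 5 calls held in 6 to 9 each, with adjusted p as high as 0.451 to 0.885 in the alternatives that lost them, and without shW replicate 1 only the window at 328001 stayed among them. Calls were then also made at 877001, 878001 and 988001, which gives 4 of 1179 windows (0.339%), against 0.855% of all.

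The depth of the relief between strong and weak bins was smaller in shSov, and here both shW replicates stood together. The SD of enrichment over the 25 bins was 0.35 and 0.33 in shSov, against 0.49 and 0.48 in shW. The means were 0.343 ± 0.012 in shSov and 0.486 ± 0.010 in shW (SD, n = 2 each), a difference of -0.14 with an exact permutation p of 0.333, the smallest possible. The distance from the highest to the lowest bin was 1.25 and 1.24 in shSov, against 1.65 and 1.58 in shW. All blocks minus all weak stretches gave 1.30 and 1.33 in shSov, against 1.69 and 1.79 in shW. The groups did not overlap in any of these 3 measures, which do not move when a constant is added to a library's values. All 3 describe the spread of the same profile in the same libraries, so they are not separate results.

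Both shSov SDs stayed below both shW SDs in 7 of 7 other settings of pseudocount, filter, input and depth that were run. The same order held on all 5 large chromosome arms, where the ratio of the mean SD in shSov to that in shW ran from 0.620 to 0.799, with 0.705 on chromosome 4. A smaller spread over bins was thus not particular to chromosome 4.

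With each library centred on its own mean over chromosome 4, both shSov values were under both shW values in 11 of 25 bins, against 22.7% of bins on chromosome 4 and the large arms centred in the same way. They lay above both in 8, against 38.1%. All 11 were among the 15 stronger bins and all 8 among the 10 weaker ones. Centring sets values on both sides of 0 by construction, so these counts restate the smaller SD over bins and are not a separate result.

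**Figure D4:**
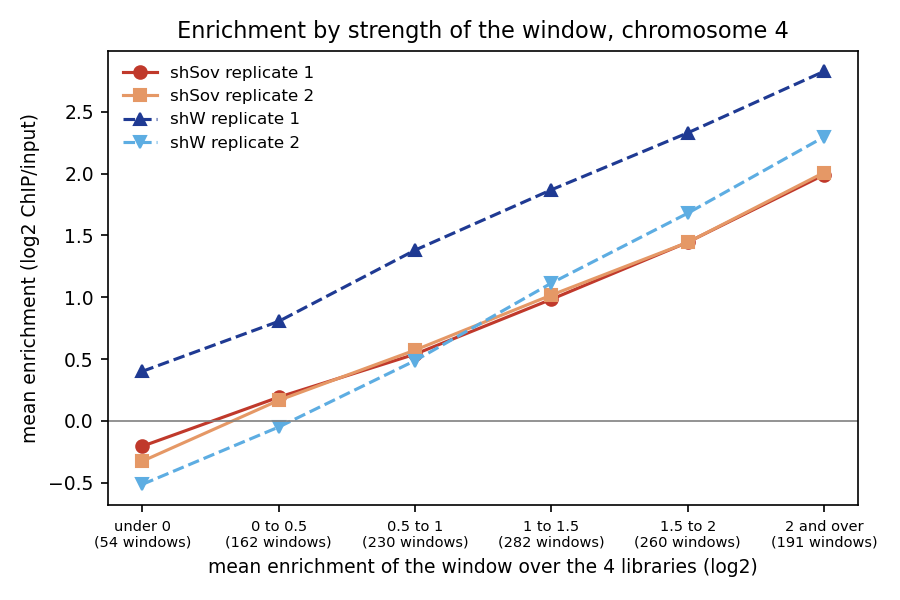
Mean enrichment (log2 ChIP over input, y axis) of tested chromosome 4 windows in 6 classes of strength, set by the mean of the window over the 4 libraries (x axis, with the number of windows), with a line for each of the 2 shSov and 2 shW libraries. The shSov lines lie above shW replicate 2 in the weak classes and below it in the strong ones, with shW replicate 1 above all.

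The same gradient was seen in windows grouped by their mean over the 4 libraries. In the 54 windows below 0, enrichment was -0.20 and -0.33 in shSov, against 0.40 and -0.51 in shW. In the 282 windows between 1 and 1.5 it was 0.98 and 1.02 in shSov, against 1.87 and 1.11 in shW. In the 191 windows of at least 2 it was 1.99 and 2.01 in shSov, against 2.83 and 2.30 in shW. The difference from the shW mean grew in size from -0.21 to -0.56 between the weakest and the strongest class. Against shW replicate 2 alone it was 0.25 in the weakest class and -0.30 in the strongest. These classes were made from the same libraries and are a description, with no test.

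Both parts of the ratio moved with genotype. ChIP RPKM was lower in both shSov libraries than in both shW libraries in 25 of 25 bins, against 17.9% of all bins, with log2 differences from -1.13 to -0.19 and a median of -0.85. Input RPKM was lower in 24 of 25 bins, against 27.9% of all bins. The log2 ratio of summed input RPKM, shSov over shW, ran from -0.51 to -0.08 with a median of -0.39. The ChIP differences are between means of log2 RPKM. Chromosome 4 took 1.07 ± 0.0427% of input reads in shSov and 1.40 ± 0.0514% in shW (SD, n = 2 each). With ChIP alone, or with the mean of all 4 inputs in place of each library's own, the difference over the chromosome was -0.80 in place of -0.44. The difference was thus smaller with each library's own input. Why input on chromosome 4 differed by genotype was not tested.

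**Figure D5:**
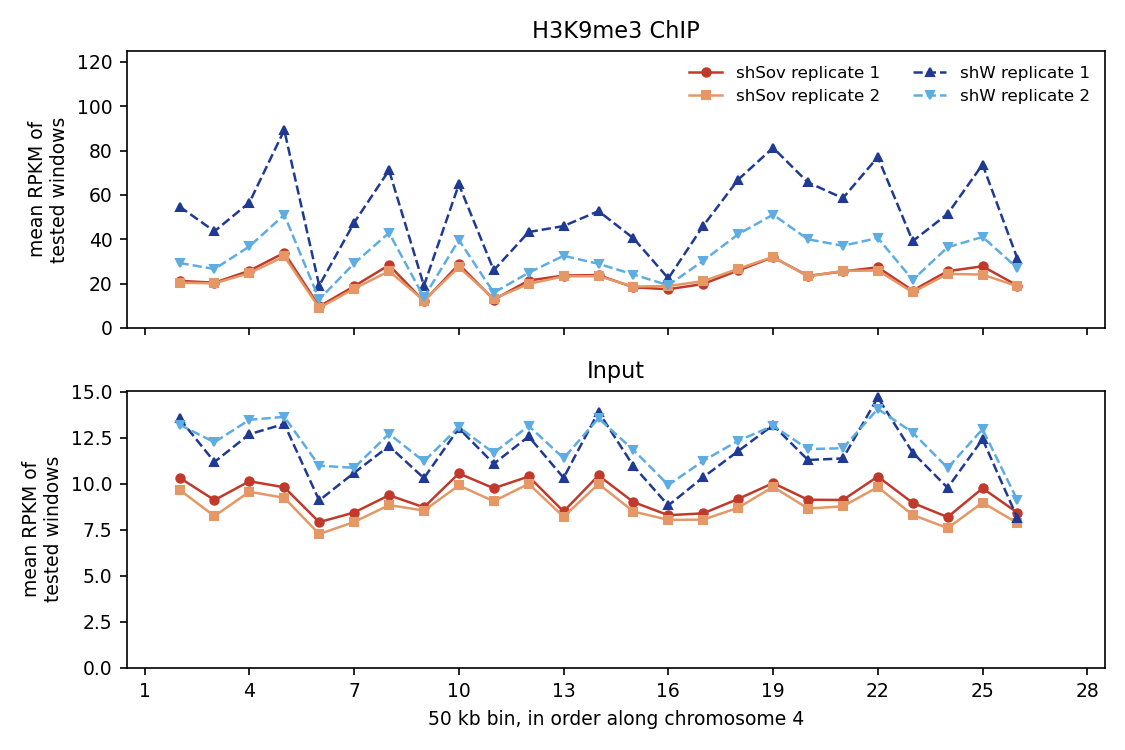
Mean RPKM of tested windows in each 50 kb bin along chromosome 4 (x axis), for ChIP (upper panel) and input (lower panel, y axes from 0), with a line for each of the 2 shSov and 2 shW libraries. Both ChIP lines of shSov lie below both lines of shW in 25 bins, and the input lines do so in 24.

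A short stretch stood apart from this pattern. The block from 769001 to 792000 had an enrichment of 1.29 and 1.43 in shSov, against 1.45 and 1.31 in shW, a difference of -0.02. Its ChIP was 23.9 and 26.1 RPKM in shSov, against 25.9 and 25.6 RPKM in shW, and its input 8.77 and 8.56 RPKM in shSov, against 8.67 and 9.26 RPKM in shW. So neither ChIP nor input separated the genotypes there, nor did the shW replicates stand apart. The other block with an overlap was 1135001 to 1145000, where shW replicate 2 (1.46) lay between the shSov values and shW replicate 1 (2.45) above them.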

How the data were processed

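Ovary ChIP-seq with an antibody to H3K9me3 and matched inputs gave 8 libraries, 2 in each of 4 groups. Per the submitters' processing notes, Bowtie, bedtools and build dm3 were used. How multi-mapping and duplicate reads were handled is not given in the sources used here. For each 1 kb window the authors deposited a raw read count and an RPKM value, which equalled the count divided by window length and library total, so that no input had been subtracted.

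Enrichment was computed with a pseudocount of 1 RPKM over windows with a mean input of at least 2 RPKM, each ChIP against the input of its own number. A fold on this scale understates changes in low windows. Bins of 50 kb started at position 1 of each scaffold and needed at least 10 tested windows. Counts were tested with edgeR 4.0.16 in R 4.3.3, with library totals as offsets. Alternatives used limma 3.58.1 on the log2 enrichment and DESeq2 1.42.0. Single values were tested by exact permutation over libraries with scipy 1.17.1. The scripts were tested on simulated data.

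The replicate counts differed beyond sampling noise (chi-square per degree of freedom of 1.41 in shSov ChIP, 3.00 in shW ChIP, 1.48 in shSov input and 2.15 in shW input), so each library counted as 1 sample. Named regions are the 3 highest and 3 lowest bins, the bins with the largest and smallest difference, the windows called by edgeR, the 5 highest and 5 lowest windows, the 5 strongest blocks and the 5 gaps. The blocks that overlapped between genotypes, the longest block and the last bin were named after their values were seen. The chromosome, its limits and these rules were chosen with earlier results of these data known. Genes could not be placed, since the gene table is of Release 6 and not dm3.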

Additional observations from a re-analysis of the deposited data

How the results depend on the processing

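The chromosome 4 difference in mean enrichment kept its sign in 12 of 12 alternatives (-0.81 to -0.07), and that of the strongest blocks in 14 of 14. Each is held up in size by shW replicate 1, and 2 libraries a group cannot reach significance by permutation. For the whole chromosome, ChIP alone and the mean of all 4 inputs give the same genotype difference by construction, so they are not separate alternatives.

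Bins with both shSov values below both shW values numbered 25 with the mean of all inputs or with ChIP alone, whose differences are the same by construction. Such bins numbered 32 of 50 with bins of 25 kb, and 16 to 25 with a replicate left out. Those above both numbered 8 when each library was centred on its chromosome 4 mean, and 0 to 9 with a replicate left out. Windows enriched in shW numbered 645 to 971 with a replicate left out. Total block length was 311 kb at a limit of 1.5.

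Gaps numbered 1 (3 kb) centred on the arms, 23 (174 kb) at a limit of 0.5, 0 (0 kb) at 5 or more windows, and 1 to 12 (3 to 45 kb) with a replicate left out. Their difference reversed to 0.0118 with a pseudocount of 5 RPKM and 0.0559 when gaps were chosen on shW, and was -0.0617 to 0.296 with a replicate left out. Leaving out shW replicate 1 gave both the 12 gaps and the difference of 0.296. The cause was not tested.

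The percentage in brackets after each number of calls is the share of all windows or bins of the genome called lower in the same fit. Windows called lower numbered 3 with TMM (0.696%), 9 with DESeq2 (0.852%), 0 with limma (0.18%), 580 with ChIP alone (3.19%), 39 with no filter (0.871%), 0 with every library thinned to 4208693 reads (0.16%) and 0 to 714 with a replicate left out (0.0359% to 5.05%). Bins called lower numbered 1 with DESeq2's size factors (2.23%), 3 with DESeq2 (11.3%), 24 with ChIP alone (9.63%), 1 with no filter (2.6%) and 0 to 24 with a replicate left out (0.0398% to 15.9%). Thinning matched library totals and not the reads on chromosome 4, whose share differs between libraries.

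With the replicate number as a block, edgeR called 7 windows (0.523%) and 0 bins (0.358%), and limma, chosen after seeing the data, 53 windows (0.866%) and 20 bins (3.34%). Deviations of same-numbered libraries correlated at -0.03 over all windows and 0.35 on chromosome 4, so the numbers are not shown to pair libraries. The bin from 750001 reversed to 0.0046 with libraries thinned, and ranged from -0.23 to 0.20 with a replicate left out. Those from 250001 (-0.77 to 0.035), 400001 (-0.43 to 0.15) and 500001 (-0.64 to 0.0605) reversed without shW replicate 1.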

Other observations

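Within the block that did not separate the genotypes, a scan of 10 kb segments was chosen after its values were seen. Of 119 segments with at least 5 tested windows, only that from 780001 to 790000 had a lower enrichment in shW replicate 1 than in shW replicate 2. Over all segments the median of that difference was 0.76, with a maximum of 1.32. The segment had an enrichment of 1.56 and 1.68 in shSov, against 1.63 and 1.72 in shW. Its ChIP stood at 29.2 and 32.0 RPKM in shSov, against 29.8 and 32.3 RPKM in shW, so all 4 libraries lay close together. Its input was 9.16 and 9.17 RPKM in shSov, against 8.99 and 9.05 RPKM in shW, a log2 difference of 0.02 where the median segment had -0.40. It was 1 of 2 segments in which input was not lower in shSov. The cause was not tested.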
